A study of Mus musculus with 24 samples.

Results

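Acetylation of histone H3 at lysine 27 (H3K27ac) at gene ends was set against trimethylation of histone H3 at lysine 36 (H3K36me3) over gene bodies in N1E115 mouse neuroblastoma cells kept for 3 days at 4% oxygen. The comparison used 4 of the 24 samples of the series, 2 H3K27ac and 2 H3K36me3 libraries, taken by the mark and oxygen level in their titles. The other samples were the 3 further marks, the same marks in cells of the same line kept for 3 days at 20% oxygen, and 4 inputs. All cells carry the label NOS1-positive, and the labels give the tissue as brain and the cell type as neuroblast. They name no clone, no genotype beyond NOS1 and no treatment besides the oxygen level. Fixed chromatin was immunoprecipitated with antibodies to each mark and the DNA sequenced (ChIP-seq), and nothing says that the libraries of a mark came from separate cultures, so their spread may be technical. Libraries whose titles end in rep are called set 2 here, and those without that ending set 1.

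H3K27ac is placed by the acetyltransferases CBP and p300 and is found at active promoters and enhancers. H3K36me3 is placed by SETD2, which travels with elongating RNA polymerase II, and it builds up over transcribed gene bodies, towards their far ends. A transcribed gene commonly carries both, and a gene with only 1 of them departs from that pattern. In neuroblastoma cells, acetylated clusters lie over the genes of the noradrenergic regulators that keep the cells' identity.

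The members were 21887 protein-coding gene records on chromosomes 1 to 19, X and Y of the mouse build GRCm38, which is the mm10 build of the deposited peaks. A gene counted as acetylated where H3K27ac peaks covered at least 200 bp of the window of 1000 bp either side of its start or its far end. It counted as having an H3K36me3 body where H3K36me3 islands covered at least 25% of the record. A class was given only where both libraries of each mark gave the same answer. In both 4% libraries 44.8% of the genes were acetylated and 39.2% had an H3K36me3 body. By these rules 1672 genes (7.64% of all genes) had acetylated ends without an H3K36me3 body, and 863 genes (3.94%) had an H3K36me3 body without acetylated ends. Both marks were present at 7263 genes (33.2%) and neither at 9840 genes (45.0%), while 2249 genes (10.3%) were left undecided because libraries of the same mark differed.

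Promoters of 4 genes are shown because the results turn on such starts. H3c13, a replication-dependent histone gene, and Gadd45g, a stress-response gene, were acetylated at both ends without any H3K36me3. Nos1, neuronal nitric oxide synthase, and Cntn3, the adhesion molecule contactin 3, had H3K36me3 over most of the record and no H3K27ac at the start. Each window runs from 250 bases before to 50 bases after an annotated start (RefSeq, GRCm38.p6), 5′ to 3′ on the gene's own strand. Capitals mark CG dinucleotides and the letters CCAAT and TATAAA, which were searched on both strands and do not overlap each other here. The windows lie at chr3:96268404-96268703 (plus strand), chr13:51846425-51846724 (plus), chr5:117866589-117866888 (plus) and chr6:102464618-102464917 (minus), in the order below.
H3c13: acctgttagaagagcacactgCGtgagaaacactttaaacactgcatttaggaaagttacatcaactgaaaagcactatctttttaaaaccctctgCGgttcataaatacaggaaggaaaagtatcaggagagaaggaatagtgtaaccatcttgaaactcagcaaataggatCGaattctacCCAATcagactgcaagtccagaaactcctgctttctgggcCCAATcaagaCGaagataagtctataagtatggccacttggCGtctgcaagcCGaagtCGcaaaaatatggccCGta
Gadd45g: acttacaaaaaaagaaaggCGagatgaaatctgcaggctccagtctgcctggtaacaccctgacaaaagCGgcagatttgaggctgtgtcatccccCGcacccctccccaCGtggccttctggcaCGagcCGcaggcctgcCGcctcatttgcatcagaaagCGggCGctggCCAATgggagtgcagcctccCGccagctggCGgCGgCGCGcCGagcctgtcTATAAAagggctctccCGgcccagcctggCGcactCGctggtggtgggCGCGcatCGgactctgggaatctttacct
Nos1: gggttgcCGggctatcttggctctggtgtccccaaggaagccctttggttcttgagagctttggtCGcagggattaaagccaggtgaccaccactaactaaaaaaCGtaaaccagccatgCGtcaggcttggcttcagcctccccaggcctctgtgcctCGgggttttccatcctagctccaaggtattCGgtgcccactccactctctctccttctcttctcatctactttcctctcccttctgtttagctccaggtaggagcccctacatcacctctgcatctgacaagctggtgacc
Cntn3: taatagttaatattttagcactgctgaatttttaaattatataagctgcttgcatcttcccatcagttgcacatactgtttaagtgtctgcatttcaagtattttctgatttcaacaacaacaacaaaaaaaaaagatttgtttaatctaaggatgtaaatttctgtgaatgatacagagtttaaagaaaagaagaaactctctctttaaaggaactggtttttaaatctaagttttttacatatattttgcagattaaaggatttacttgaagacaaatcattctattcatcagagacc

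The window of H3c13 held 8 CG dinucleotides and 2 CCAAT matches, and that of Gadd45g held 21 CG, 1 CCAAT and 1 TATAAA match. The window of Nos1 held 6 CG and that of Cntn3 held 0, and neither held CCAAT or TATAAA. Over the 17492 genes with such a window the median number of CG was 13, and 39.2% of the windows held CCAAT and 13.3% held TATAAA. The start listed for Cntn3 lies 99947 bp inside its gene record, whose outer edge lies further upstream.

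The 4 lists differed in depth of calling. The H3K27ac libraries held 60786 peaks over 56.9 Mb in set 1 and 94286 peaks over 75.2 Mb in set 2, and the H3K36me3 libraries held 17535 islands over 310.9 Mb and 20757 islands over 331.0 Mb. The islands held 15581212 and 15349603 reads. Read totals of the libraries are not given in the files, so an absent peak says only that no peak was called at that depth. Of the undecided genes, 909 were acetylated in set 2 only, the set with the larger peak list, and 204 in set 1 only. H3K36me3 bodies went the other way, with 521 of these genes having one in set 2 only and 737 in set 1 only, although set 2 had more islands. The part of the list length in these counts was not tested. Gene by gene, the length under H3K27ac at the ends had a Spearman correlation of 0.95 between sets, and the H3K36me3 share one of 0.92, over 21887 genes that are not independent. Between the 2 marks it was 0.70 in set 1 and 0.66 in set 2.

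Markers of the labelled cells showed both marks at 9 of 10 genes, against 33.2% of all genes. Th, the rate-limiting enzyme of catecholamine synthesis, had 2001 bp of H3K27ac at its ends in each set, and islands over 100% and 94.5% of its record in sets 1 and 2. Dbh, the enzyme that makes noradrenaline from dopamine, also had 2001 bp in each set, with islands over 99.5% and 90.4%. The exception was Gata3, described with the genes that had a body only. In the longer list of 28 noradrenergic identity genes, 18 had both marks. In that list 5 had neither mark: Ddc, Hand1, Insm2, Tfap2b and Tlx2. Of the lists for other cell types, both marks were present at 1 of 15 glial, 1 of 15 immune, 0 of 10 endothelial and 0 of 15 liver and muscle markers.

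By the rule, every gene of a one-sided class has that class in each set taken alone, so the counts per set cannot be smaller. Counting each set by itself, 2069 genes in set 1 and 2724 genes in set 2 were acetylated without a body, and 1386 and 1120 genes had a body without acetylated ends. The first class was larger in set 2 and the second in set 1.

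**Figure D1:**
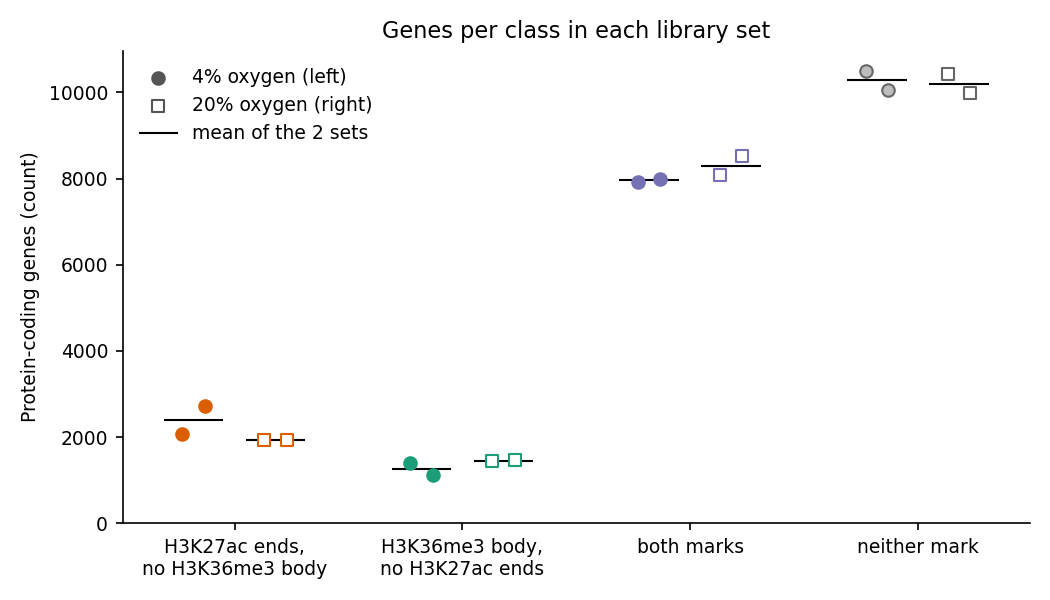
Protein-coding genes (count, vertical axis) in each class when each set of libraries is taken alone, with 4% oxygen as filled circles on the left and 20% oxygen as open squares on the right; each point is 1 set and the line is the mean of the 2 sets. Genes with acetylated ends and no body numbered 2069 and 2724 at 4% oxygen and 1934 and 1926 at 20% oxygen.

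Acetylated ends without a body lay mostly at the start of the gene. Of the 1319 such genes with a strand in the promoter table, 884 (67.0%) were acetylated at the start only in both libraries, 204 (15.5%) at both ends and 226 (17.1%) at the far end only. Among the 5916 genes with both marks and a strand, 91.1% were acetylated at the start only and 58 genes at the far end only. The genes acetylated at both ends without a body were short, with a median record of 2348.5 bp, so that the windows of their ends lie close together or overlap. Another coding record overlapped the gene or lay within 1000 bp of it at 49.6% of the genes acetylated at the far end only. The share was 46.7% at those acetylated at the start only and 31.6% at all genes. Among genes with both marks it was 70.7% of the 58 acetylated at the far end only and 43.1% of those acetylated at the start only.

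Most of these genes had no H3K36me3 island at all. Islands covered 0 bp of the record in both libraries at 1073 of the 1672 genes (64.2%). A further 267 genes reached a share of at most 10%, and 332 genes (19.9%) lay above it. At least 10000 bp were covered in both libraries at 106 genes, whose records were long enough for such a stretch to stay under 25%. Close to the limits, 120 genes had a higher share between 20% and 25%, and 204 genes had a lower H3K27ac length under 300 bp.

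Peaks at these ends had lower median scores than those at genes with both marks. The best peak at the ends had a median score, the authors' −log10 value used here only within a list, of 22.5 in set 1 and 25.6 in set 2, against 33.4 and 33.3 at genes with both marks. The median length under H3K27ac was 935 and 1179.5 bp, against 1266 and 1414 bp. The quartile ranges overlapped: in set 1 the scores ran between 12.4 and 50.9 at acetylated genes without a body and between 18.1 and 59.2 at genes with both marks.

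Marks that the classes did not use differed between them. A peak of H3K4me3, the mark of promoters, covered at least 200 bp at an end in both libraries at 91.1% of the genes with acetylated ends only, at 29.0% of those with a body only, at 99.2% of those with both marks and at 53.1% of all genes. H3K4me1, which marks enhancers and the flanks of promoters, was present in sets 1 and 2 at 30.6% and 24.8% of the genes with acetylated ends only. The shares were 5.56% and 5.79% of those with a body only and 19.9% and 16.9% of those with both marks. Over all genes they were 12.1% and 10.3%. H3K27me3, the Polycomb mark of repressed genes, was present in both libraries at 7.12%, 8.46% and 2.18% of the same classes, in that order. It was present at 29.6% of the genes with neither and at 15.6% of all genes. All 3 marks were measured in separate libraries, so these shares are not set by the rule.

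The profile over records of at least 5000 bp showed where along the gene the classes parted. At the 577 genes with a body only, islands covered on average 31.3% and 31.8% of the first 10% of the record in sets 1 and 2, against 57.2% and 55.4% at the 5391 genes with both marks. Over the last 10% they covered 86.2% and 84.1%, against 90.9% and 89.1%. The difference between these classes was thus large near the start and small near the far end. At the 1022 genes acetylated at a start or far end without a body, islands covered 1.54% and 2.38% of the middle 20% of the record and 11.1% and 9.74% of the last 10%.

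**Figure D2:**
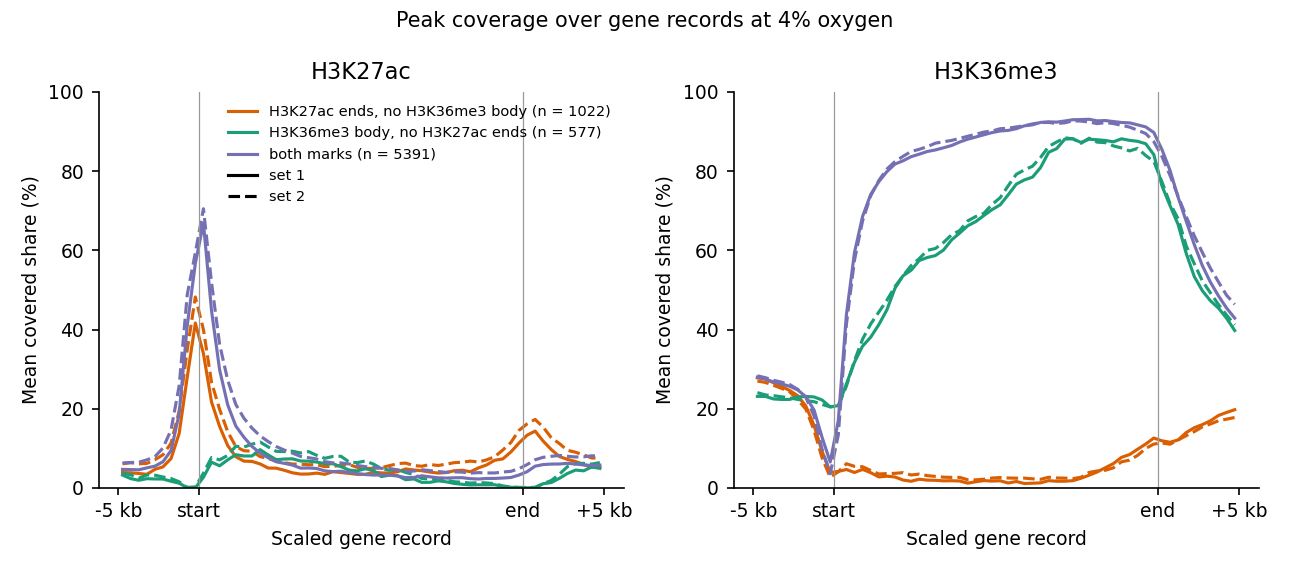
Mean share (%) of each bin covered by H3K27ac peaks (left) and H3K36me3 islands (right) along gene records of at least 5000 bp scaled to 40 bins, with 5 kb on each side in true distance, at 4% oxygen; solid lines are set 1 and dashed lines set 2. Genes with a body only (green) gained H3K36me3 along the record, at 31.3% of the first 10% and 86.2% of the last 10% in set 1, while genes with acetylated ends only (orange) stayed at 1.54% in the middle 20%.

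Gene length bore on whether an acetylated gene had a body. Of the acetylated genes under 2 kb, 42.1% in set 1 and 30.9% in set 2 had a body. The share was 84.7% and 81.4% for records of 20 to 50 kb and fell again to 51.8% and 54.5% for records of 200 kb or more. In the other direction, genes with a body were acetylated at an end in 64.1% and 58.2% of records under 2 kb, and in 81.1% to 89.7% of records from 2 to 200 kb in either set. The genes with acetylated ends only had a median record of 19770.5 bp, against 23609 bp for genes with both marks and 17169 bp for all genes. Both tails were fuller in that class: 21.5% of its records were under 5 kb and 17.6% reached 100 kb, against 8.91% and 9.40% at genes with both marks. Because the limit is a share of the record, a long gene needs a longer island to pass it, and whether that sets the fall at long genes was not tested.

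**Figure D3:**
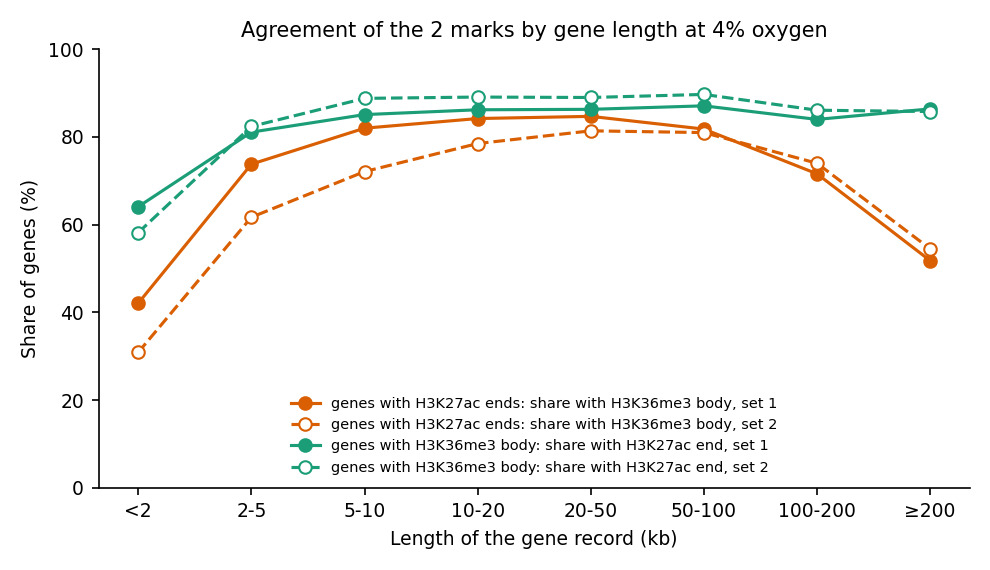
Share of genes (%, vertical axis) carrying the second mark, by length of the gene record (kb), at 4% oxygen; orange lines take acetylated genes and give those with an H3K36me3 body, green lines take genes with a body and give those with an acetylated end, filled points are set 1 and open points set 2. The orange lines were at 42.1% and 30.9% under 2 kb, 84.7% and 81.4% at 20 to 50 kb, and 51.8% and 54.5% from 200 kb.

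The length of the acetylated stretch went along with the body over part of its range. Of the genes with 200 to 500 bp of H3K27ac at their ends, 64.0% in set 1 and 54.0% in set 2 had a body. Of those with 1500 to 2000 bp, 87.4% and 84.7% had one. With 3000 bp or more the share was lower again, at 76.5% of 149 genes and 69.3% of 316 genes.

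The replication-dependent histone genes had the highest share of acetylated ends without a body among the 17 gene lists. These genes encode the core and linker histones made during DNA replication; they are short, have no introns in the main, and end in a stem-loop in place of a poly(A) tail. Of 62 matched members, 45 (72.6%) had acetylated ends without a body, against 7.64% of all genes, 9 had neither mark, 8 were undecided, and none had a body. H3K36me3 covered 0% of every one of the 45 records in both libraries. At H3c13 (chr3:96268654-96269155), an H3 gene, H3K27ac covered 2280 and 2241 bp of the 2502 bp of end windows in sets 1 and 2, and H3K4me3 covered 2502 and 2248 bp. At H2ac21 (chr3:96219885-96220354), an H2A gene, H3K27ac covered 2256 and 2232 bp. Its neighbour H2ac20 (chr3:96220413-96220880), which is transcribed towards it, had 2330 and 2230 bp, over windows that the pair shares. H4c14 (chr3:96262934-96263317), an H4 gene with no other coding record in its windows, had 2228 and 2245 bp.

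The histone genes lie in clusters, and 35 of the 45 were on chromosome 13 and 10 on chromosome 3. No other coding record overlapped the gene or lay within 1000 bp of it at 16 of the 45. Within the records themselves the peaks covered less: the median share of the 45 records under H3K27ac was 27.7% in set 1 and 16.7% in set 2. The records ran between 383 and 14079 bp. The shortest H3K36me3 island of the 4% lists was 399 bp in set 1 and 199 bp in set 2, and the part of the short records in the absent islands was not tested. Members of the clusters are nearly identical in sequence, and how reads with several matches were handled is not given in the sources used here, so the values of single histone genes are uncertain. The part of read placement in these values was not tested.
Histone promoters also shared sequence letters that the classes did not use. Of 57 list members with a promoter window, 86.0% held CCAAT and 59.6% held TATAAA, against 39.2% and 13.3% of all windows. Among the 42 with acetylated ends only, the shares were 88.1% and 66.7%. H3c13, printed above, holds CCAAT and no TATAAA. The shares with CCAAT were otherwise even over the classes, at 40.9% of the windows of genes with acetylated ends only, 39.2% of those with a body only and 39.1% of those with both marks. The median number of CG was 15 in the first of these classes, 14 in the second and 23 in the third.

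Immediate early genes had the second highest share. Of 35 matched members, which respond to growth signals and neuronal activity within a short time, 6 (17.1%) had acetylated ends without a body, against 7.64% of all genes; 14 had both marks, 4 neither and 11 were undecided. Arc, which acts in synaptic plasticity, had 2986 and 3705 bp of H3K27ac at its ends and no H3K36me3 in either library. Gadd45b, a growth-arrest gene, had 1682 and 2735 bp, and Ier5 had 1480 and 1448 bp, both with H3K36me3 at 0%. Klf4, a zinc finger regulator, had 702 and 1003 bp at its start and none at its far end. These 4 had the same class at 20% oxygen, while the other members with acetylated ends only, Fosb and Nr4a2, did not.

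The intronless or nearly intronless regulators were different from the histone genes. Of 48 members, 35 had neither mark (72.9%, against 45.0% of all genes), 4 acetylated ends only (8.33%, against 7.64%), 2 a body only (4.17%, against 3.94%) and 4 both. Insm1, a zinc finger regulator of neuroendocrine differentiation, had 2827 and 2788 bp of H3K27ac and 0% H3K36me3 in both 4% libraries. At 20% oxygen its record was covered to 33.7% and 27.1%, which placed it among genes with both marks. Cebpb, a bZIP regulator, had 2529 and 2465 bp of H3K27ac and H3K36me3 over 15.3% and 0% of its record.

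The 10 genes with the longest acetylated ends had 3013 to 4002 bp of H3K27ac in the 4% libraries. They were drawn from 560 with no H3K36me3 and no other coding record over them or within 1000 bp. The 10 were chosen by that length, which is given as a description. Actl11 (chr9:107928469-107932461), an actin-like gene, had 4002 and 3881 bp, the first of which fills its windows. Rnf186 (chr4:138967119-138968365), a RING finger ubiquitin ligase gene, had 3247 bp in both sets, which is the whole of its windows. Cdk5r2 (chr1:74855029-74857732) encodes p39, an activator of the neuronal kinase CDK5, and had 3560 and 3617 bp. These 3 genes had the same class at 20% oxygen.
Gadd45g (chr13:51846675-51848475), whose promoter is printed above, had 3150 and 3013 bp of H3K27ac. At Sh2d6 (chr6:72513641-72534206), an SH2-domain gene, H3K27ac also covered 10808 and 16273 bp inside its record of 20566 bp, and at Rmi2 it covered 2899 and 5870 bp inside 8177 bp. Tmem107, a ciliary membrane protein gene, had 3810 and 3903 bp, and Prr9 had 3690 and 3652 bp of windows of 3744 bp. H3K4me3 was present at the ends of all 10, from 328 bp at Actl11 in set 1 to 4002 bp at Cdk5r2 in set 1, and H3K27me3 at none. At 20% oxygen 8 of the 10 had the same class, and Rab36 and Rmi2 were undecided: at Rab36 islands covered 0% and 88.5% of the record in the 20% libraries, and at Rmi2 14.7% and 26.9%.

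**Figure D4:**
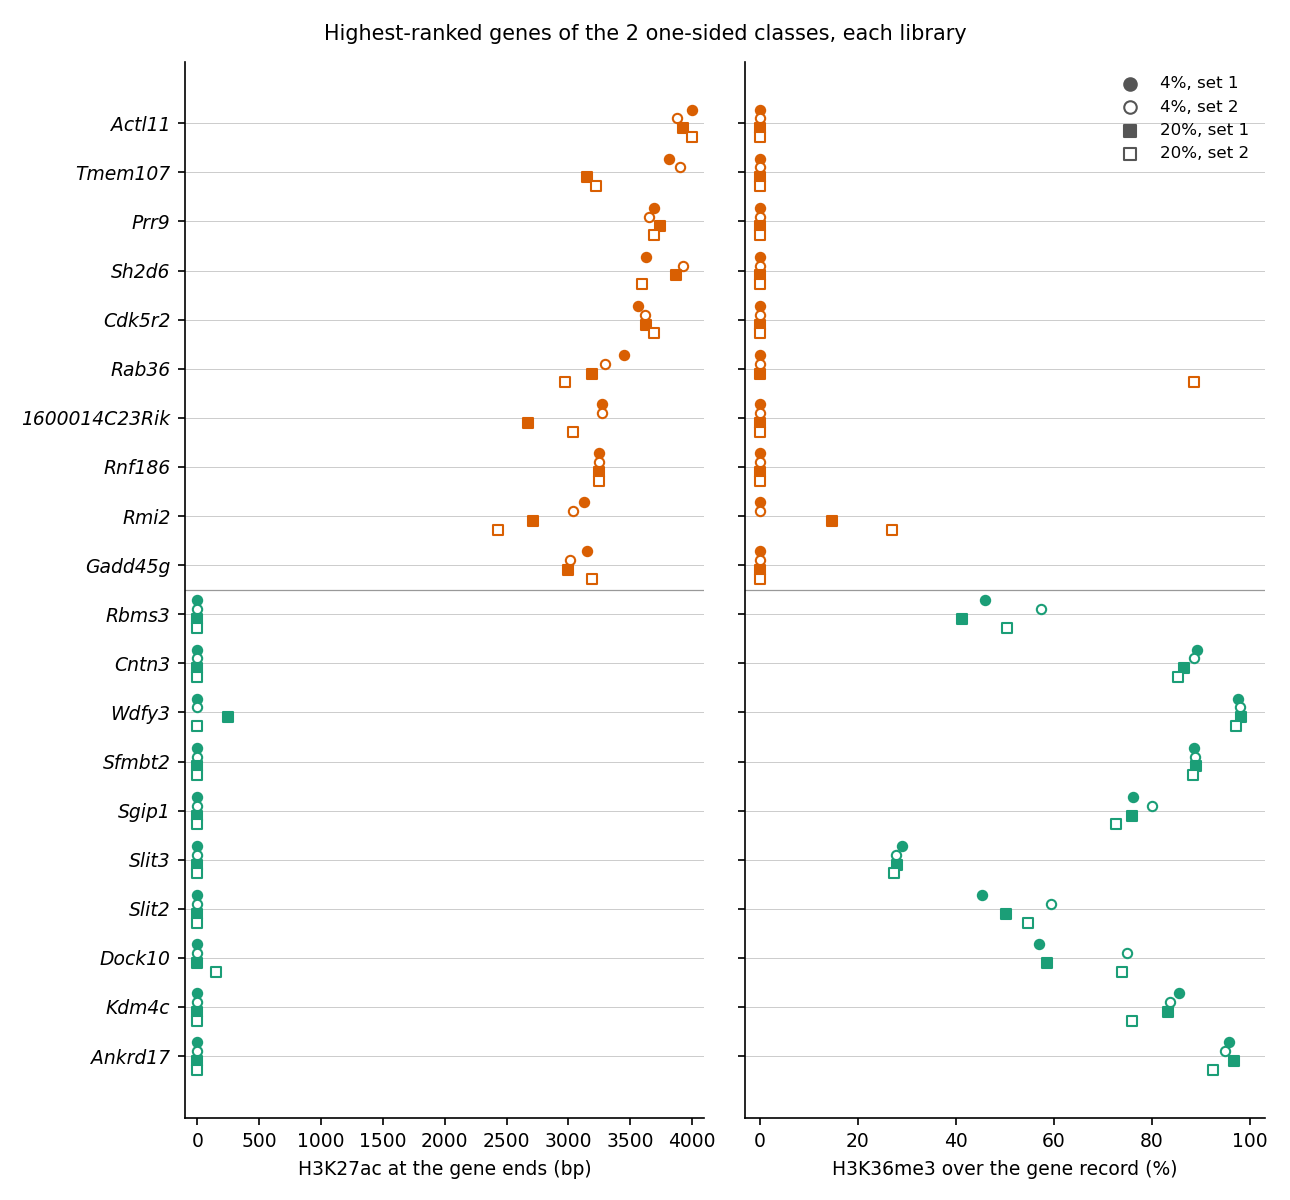
H3K27ac length at the gene ends (bp, left) and H3K36me3 share of the gene record (%, right) in each library for the 10 genes with the longest acetylated ends (orange, above the line) and the 10 with the longest H3K36me3 stretch (green, below it); circles are 4% oxygen, squares below them 20% oxygen, filled symbols set 1 and open symbols set 2. The genes were chosen by their 4% values; at 20% oxygen Rab36 stood at 0% and 88.5% H3K36me3.

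Genes with a body and no acetylated end had H3K36me3 over most of the record, though less of it than genes with both marks. The median share of the record was 74.2% in set 1 and 74.7% in set 2, against 91.5% and 90.0% at genes with both marks. Of the 863 genes, 212 were covered to at least 90% in both libraries, and 63 had a lower share under 30%, just inside the limit. H3K27ac at the ends was 0 bp in both libraries at 769 of them (89.1%), and it reached 100 bp or more at 63, just outside it. Islands over these genes held a median of 42.6 and 40.2 reads per kb, the authors' counts over island length, against 47.5 and 44.4 at genes with both marks.

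These genes were also searched for acetylation away from the record's ends. H3K27ac was called inside the record, over 1000 bp from both ends, at 417 of the 863 genes (48.3%), against 49.2% of the genes with both marks and 29.3% of all genes. An annotated start, counting starts inside the record, was acetylated within 1000 bp at 304 of the 704 genes in the promoter table (43.2%). The share was 98.3% of the genes with both marks and 46.1% of all genes. These shares are not alike, because by the rule a start at the edge of the record cannot count at body-only genes. More than 1 annotated start was listed for 26.4% of the 704 body-only genes, against 19.1% of the genes with both marks and 15.8% of all genes. Islands reached an H3K27ac peak outside the record at 36.3% of the 863 genes, against 26.2% of the genes with both marks and 12.4% of all genes. Of the body-only genes whose islands reached such a peak, 213 (24.7% of the 863) had no H3K27ac inside. Another coding record overlapped 34.1% of the 863 genes, against 22.3% of the genes with both marks and 17.5% of all genes, and which gene's transcription such an island belongs to cannot be told apart from peak lists. This left 233 genes with none inside and none reached, of which 132 (56.7%, against 53.1% of all genes) had H3K4me3 and 26 (11.2%, against 15.6%) had H3K27me3 at an end in both libraries, both near the shares of all genes.

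Several well-known genes of this class had H3K27ac inside the record and none at its outer ends. Gata3 (chr2:9857078-9887953), a regulator of sympathetic neurons, was covered by H3K36me3 to 67.1% in both 4% libraries and had no H3K27ac at the record's ends, while 6478 and 10490 bp inside the record were acetylated. Hk1 (chr10:62268855-62379920), a hexokinase of the first step of glycolysis, was covered to 74.1% and 72.5%, with 19222 and 25155 bp of H3K27ac inside. Cdkn1a (chr17:29090979-29100722), the cell cycle inhibitor p21, was covered to 52.6% and 50.5%, with 2240 and 2672 bp inside. At all 3 the acetylated stretch was longer in set 2 than in set 1. Cox5a and Cox7a2, subunits of cytochrome c oxidase, and Car12, a carbonic anhydrase, showed the same layout, with 710 to 11183 bp of H3K27ac inside the record in the 4% libraries. With windows of 2500 bp at the ends, Cdkn1a and Car12 counted as having both marks.

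Nos1 (chr5:117866839-117958840), the gene in the cells' label, was covered by H3K36me3 to 98.9% and 96.0% in the 4% libraries and to 95.8% and 100% in the 20% libraries. No H3K27ac or H3K4me3 was called at its ends in any 4% library. The nearest H3K27ac peak lay 18007 bp outside the record in set 1, and in set 2 a peak of 204 bp lay inside it. The nearest H3K4me3 peaks lay 17362 and 17541 bp away. The islands over Nos1 ran over chr5:117842201-117957799 in set 1 and over chr5:117865401-117955999 in set 2, so only the first began well before the record.

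Cntn3 (chr6:102163304-102564614), a cell adhesion gene of neurons, was the only gene without H3K27ac inside the record among the 10 with the longest H3K36me3 stretches. Islands covered 89.3% and 88.6% of its 401311 bp at 4% oxygen and 86.5% and 85.4% at 20% oxygen. No H3K27ac was called inside, and the nearest peaks lay 5104 and 6108 bp outside the record. The printed start of Cntn3 was therefore not acetylated either. The nearest H3K4me3 peaks lay 5077 and 4610 bp away. The islands over Cntn3 ran over chr6:102162401-102572399 in set 1 and over chr6:102161001-102572199 in set 2, beyond both edges of the record.
The other 9 genes, drawn from 497 without H3K27ac at the ends and without an overlapping coding record, all had H3K27ac inside. Kdm4c, a histone demethylase that also acts on H3K36me3 and is induced by low oxygen, had 85.6% and 83.7% of its record covered, and 1036 and 1032 bp of H3K27ac inside. Sfmbt2, a Polycomb-group gene, had 88.6% and 88.7% covered, with 2915 and 3390 bp inside. Slit3, an axon guidance ligand gene, was covered to 29.0% and 27.7%, with 121740 and 146153 bp of H3K27ac inside its 587052 bp, and had H3K27me3 at an end (600 and 200 bp). Slit2 was covered to 45.3% and 59.4%.
With windows of 2500 bp, Ankrd17, Sfmbt2, Slit2 and Wdfy3 counted as having both marks, and Sgip1 and Dock10 were undecided. With a limit of 50% of the record, Rbms3 and Slit2 were undecided and Slit3 had neither mark. At 20% oxygen 9 of the 10 genes had the same class. Wdfy3, an autophagy adaptor gene, was undecided there, with 245 bp of H3K27ac in set 1 and 0 bp in set 2.

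Intronless genes within this class were of another kind. Rhob (chr12:8497661-8500009), a small GTPase gene, was covered to 100% in all 4 H3K36me3 libraries at both oxygen levels. Its nearest H3K27ac peaks at 4% oxygen lay 6946 and 5616 bp away, and the islands over it ran over chr12:8491001-8508799 in set 1, beyond both of its ends. Zxdb (chrX:94724569-94730191), a zinc finger gene, was covered to 49.6% and 46.1%, and its nearest H3K27ac peaks lay 179532 and 87885 bp away; with a limit of 50% of the record it had neither mark. No H3K4me3 was called at the ends of either gene.

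KRAB zinc finger genes had a higher share with a body only, and a lower share with acetylated ends only, than all genes. They encode repressors of transposable elements, lie in clusters of near-identical copies, and are known for H3K36me3 over their 3′ exons. Of 148 matched members, 83 had both marks, 26 neither, 13 (8.78%) a body only, 7 (4.73%) acetylated ends only and 19 were undecided; over all genes the shares were 3.94% with a body only and 7.64% with acetylated ends only. Zfp59 was covered to 74.2% and 77.1%, with 1304 and 1587 bp of H3K27ac inside the record, and had both marks with windows of 2500 bp. Zfp809, a repressor of retroviral elements in embryonic stem cells, was covered to 65.1% and 67.2% with 0 and 195 bp of H3K27ac at its ends, just under the limit. Zfp773 had acetylated ends, at 1683 and 1474 bp, and no H3K36me3. Zfp943 had 1656 and 1308 bp at its start, with H3K36me3 over 0% and 20.7%, close to the other limit in set 2. As for the histone genes, values of single copies are uncertain.

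Housekeeping and metabolic genes were mostly carried by both marks. Of 77 cytosolic ribosomal protein genes, 73 had both, 1 a body only and none acetylated ends only, although they are short, with a median record of 3164 bp. The 1 body-only member, Rpl17, had H3K36me3 over 63.1% and 54.1% of the record, H3K27ac of 1154 and 1578 bp inside it, and H3K27me3 of 2001 bp at an end in both libraries, and had both marks with windows of 2500 bp. Both marks were present at 30 of 35 mitochondrial respiration genes, 25 of 32 cell cycle genes, 22 of 26 genes of glycolysis and glucose uptake, 32 of 44 neuronal and synaptic genes and 18 of 28 noradrenergic identity genes, between 64.3% and 85.7% of each list, against 33.2% of all genes. Of 65 developmental regulators of the Polycomb type, 50 had neither mark (76.9%, against 45.0% of all genes), 4 acetylated ends only (6.15%, against 7.64%) and 2 both. Of those 4, Hoxc10 had 1046 and 1360 bp of H3K27ac beside 804 and 1404 bp of H3K27me3 at its ends. Otx1 had 718 and 953 bp and no H3K36me3 at 4% oxygen, while islands covered 81.8% of it in both 20% libraries.
Gene lists of other tissues had one-sided shares on either side of those of all genes, on few members. Acetylated ends without a body were found at 7.41% of the olfactory and vomeronasal receptor genes, 13.3% of the immune markers (Cd4 and Cd79a) and 6.67% of the liver and muscle markers, against 7.64% of all genes. Olfr78, a receptor gene of the olfactory family, was 1 of 2 acetylated without a body among 27 olfactory and vomeronasal receptor genes; it had 2704 and 2942 bp of H3K27ac at its ends, 5542 and 7533 bp inside the record, and no H3K4me3. The other 25 had neither mark. Myog, a muscle regulator, had 1293 and 1726 bp of H3K27ac without H3K36me3, and Vwf, the von Willebrand factor gene of endothelium, was covered by H3K36me3 to 72.1% and 61.4% with 18209 and 22663 bp of H3K27ac inside.

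**Figure D5:**
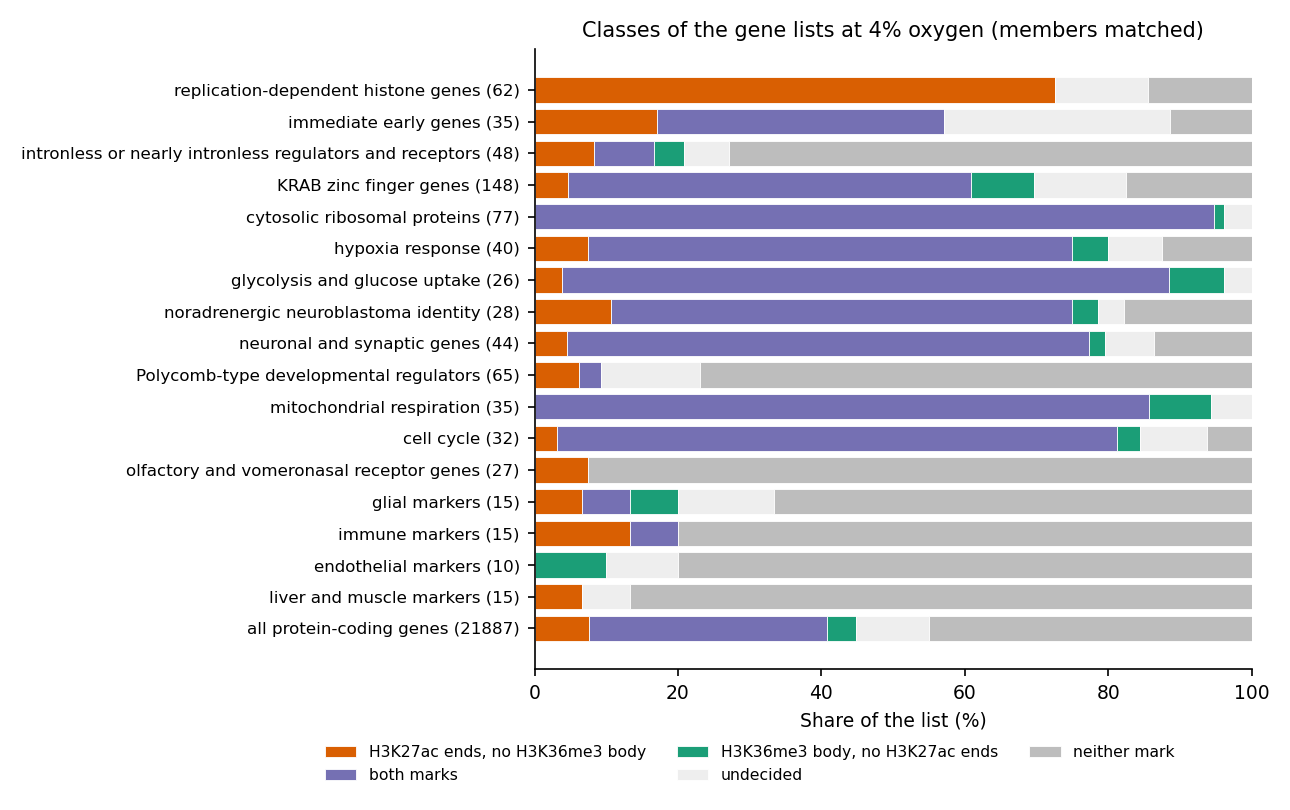
Share (%) of each gene list in each class at 4% oxygen, with the number of matched members in brackets and all protein-coding genes in the last row; orange is acetylated ends without an H3K36me3 body, green the reverse, violet both marks, dark grey neither and light grey undecided. The histone list has 72.6% in orange against 7.64% of all genes, and the ribosomal protein list has none.

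Genes of the hypoxia response were mostly double-marked, and their one-sided shares were close to those of all genes. The list holds targets of the HIF transcription factors, which are stabilised when oxygen is low. It also holds genes of the HIF system itself, such as Hif1a, Epas1, Arnt and Vhl. Of 40 matched members, 27 had both marks (67.5%, against 33.2% of all genes), 3 acetylated ends only (7.5%, against 7.64%), 2 a body only (5%, against 3.94%) and 5 neither, and 3 were undecided. Bhlhe41 (chr6:145858243-145865420), a circadian repressor, had 1867 and 1919 bp of H3K27ac at its start at 4% oxygen, against 1280 and 733 bp at 20% oxygen, with no H3K36me3 in any of the 4 libraries. Epo (chr5:137483020-137485816), the erythropoietin gene, had 1074 and 2001 bp at its far end at 4% oxygen, against 535 and 472 bp at 20% oxygen. No H3K27ac was called at its start, no H3K4me3 at either end, and no H3K36me3 over its record. For both genes the 4% and 20% values did not overlap; over all genes, 12.4% had more H3K27ac in both 4% than in both 20% libraries and 5.54% had less. Ndrg1, a stress-induced gene, had 442 and 916 bp at 4% oxygen, against 0 and 205 bp at 20% oxygen, with H3K36me3 over 19.8% and 0% at 4% oxygen and H3K27me3 of 2001 bp in both 4% libraries.
Adm (chr7:110627657-110629820), which encodes the vasodilator adrenomedullin, was undecided. It had 3809 and 3078 bp of H3K27ac at 4% oxygen, against 621 and 482 bp at 20% oxygen, and H3K36me3 over 0% of its record in set 1 and 47.1% in set 2 at 4% oxygen, against 0% in both sets at 20% oxygen. Gbe1, the glycogen branching enzyme gene, had 1849 and 1730 bp of H3K27ac at 4% oxygen, against 957 and 1297 bp at 20% oxygen, and islands over 4.46% and 6.64% of its 255772 bp at 4% oxygen, against 0% in both sets at 20% oxygen. The H3K27ac values of Gbe1 did not overlap between oxygen levels, with more at 4% oxygen, as at 12.4% of all genes. For H3K36me3 the share of all genes that separate in this way is not given here. With 2 libraries in each group an exact permutation test cannot go below p = 0.333, so single genes were not tested.

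The number of genes acetylated without a body was 2069 and 2724 per set at 4% oxygen (mean 2396.5 ± 463.2, SD, n = 2) and 1934 and 1926 at 20% oxygen (mean 1930.0 ± 5.66). The difference was 466.5 genes, with an exact two-sided permutation p of 0.333 (adjusted over the 2 classes 0.333), the smallest that this design allows. Genes with a body and no acetylated end numbered 1386 and 1120 per set at 4% oxygen (1253.0 ± 188.1, SD, n = 2) and 1443 and 1457 at 20% oxygen (1450.0 ± 9.90). The difference was −197.0, with the same exact p of 0.333. The groups did not overlap in either class, but most of each difference came from set 2: the first class differed by 135 genes in set 1 and 798 in set 2, and the second by −57 and −337. The set 2 libraries of both oxygen levels were run on the same flow cell, and the 4% H3K27ac list there was the longest of the 4 H3K27ac lists, with 94286 peaks. In set 1 the 4% H3K27ac list was the shorter, with 60786 peaks against 69131. Genes with both marks differed by −150 in set 1 and −538 in set 2. H3K36me3 islands covered 310.9 and 331 Mb in sets 1 and 2 at 4% oxygen, against 331 and 349.1 Mb at 20% oxygen. The part of each mark in the class differences was not tested. In set 1 the 4% and 20% libraries were on different flow cells, so that oxygen and flow cell cannot be told apart there.

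Most one-sided genes were one-sided at 20% oxygen too. Of the 1672 genes acetylated without a body at 4% oxygen, 1154 (69.0%) had the same class at 20% oxygen, 102 (6.10%) had both marks, 53 (3.17%) neither and 361 (21.6%) were undecided. Of the 863 genes with a body only, 705 (81.7%) had the same class, 35 (4.06%) had both marks, 5 neither and 118 (13.7%) were undecided. For comparison, 94.8% of the genes with both marks and 96.7% of those with neither had the same class at 20% oxygen.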

How the data were processed

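H3K27ac, H3K4me3 and H3K4me1 peaks and H3K36me3 and H3K27me3 islands were used as deposited. The authors used BWA, Picard and SICER with the mm10 build, per the submitters' processing notes; per the file headers, peaks of each library came from MACS2 and islands from SICER. Versions are not given in the sources used here. Peak scores are −log10 values of the authors, read so from their layout, and island values are the authors' whole read counts; neither was rescaled. For the second MACS2 library of each pair the intervals came from a list whose names, scores and positions matched that library's summits in 100% of entries.

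Coverage at gene ends (1000 bp either side) and over records was computed with Python 3.11.15, numpy 2.4.6, pandas 2.3.3 and scipy 1.17.1, and the class rule was tested on simulated peak lists. Gene records, strands and promoters were from RefSeq GRCm38.p6; strands came from the promoter table, for 17492 genes. Of 730 entries in 17 gene lists, 718 matched by symbol, 5 by synonym and 7 did not. The members and lists were chosen with earlier results of these data known, so no list was tested. Named genes were the 10 of each one-sided class with the longest mark and none of the other mark. In the first class no other coding record lay over them or within 1000 bp, and in the second none overlapped them. Up to 4 per list and class with the longest mark, and Nos1 and Adm, were also named. Alternatives changed each limit in turn; depth per library is unknown. Some results are not reported here.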

Additional observations from a re-analysis of the deposited data

How the results depend on the processing

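Each of the 15 alternatives for the classes changed the calls of 1 mark, left out genes or only removed peaks. None could therefore give a gene the opposite one-sided class, which needs one mark lost and the other gained. Of the named genes, 32 of 46 with acetylated ends only and 10 of 28 with a body only had the same class under all alternatives that could be applied. Of the counts, 7 moved by over 1.5 times. With H3K27ac of at least 500 bp required, genes with a body and no acetylated end numbered 1423. With the annotated start alone counted, genes acetylated without a body numbered 1088 of the 17492 with a strand. With only the 14964 genes that have no other coding record over them or within 1000 bp (free ends below), the classes held 882 and 419 genes. For the histone list, an alternative applied after seeing the data, the count of 45 became 26 with at least 500 bp of H3K27ac, 16 of 20 members with free ends, and 2 of 3 records of at least 5000 bp; with equal peak numbers it was 32. Without 1 library at a time, acetylated genes without a body numbered 1753 to 2227, genes with a body only 960 to 1221, and histone genes 45 to 53. These counts cannot fall below those from all libraries, because fewer libraries have to give the same answer. The difference between 4% and 20% oxygen kept its sign in both classes under all 11 alternatives run, but its size ran between 254 and 492.5 genes for acetylated genes without a body, lowest with free ends, and between −333 and −100 genes for those with a body only, at 500 bp of H3K27ac and with free ends. With the sets as a replicate block, added after seeing the data, the differences were 466.5 and −197.0 with an exact p of 0.5 each, the smallest that 2 pairs allow. Peak lists hold no values below the authors' limits, so a mark under them counts as absent.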

Other observations

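Exchange between the one-sided classes with oxygen was seen at 2 genes, Hectd3 and Ccdc24, both on chromosome 4 and named after their values were seen. Hectd3 (chr4:116995296-117005277), a ubiquitin ligase gene, had 641 and 651 bp of H3K27ac at 4% oxygen, against 196 and 0 bp at 20% oxygen, and H3K36me3 over 20.0% and 0% of its record at 4% oxygen, against 54.1% and 56.1% at 20% oxygen. Ccdc24 (chr4:117869255-117872661) had 637 and 497 bp, against none at 20% oxygen, and H3K36me3 over 0% in both sets, against 74.7% in both sets at 20% oxygen. Another coding record overlaps each gene or lies within 1000 bp of it, so the peaks cannot be told apart from those of the neighbour. None of the 863 genes with a body only at 4% oxygen was acetylated without a body at 20% oxygen.

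Among the undecided genes, the largest group at 20% oxygen outside the undecided class itself was the genes with both marks, with 729 of 2249 (32.4%). The remaining ones were 211 genes acetylated without a body, 251 with a body only and 197 with neither mark. H3K4me3 lay at an end of 82.4% of the undecided genes in both 4% libraries, which is between the shares at genes with a body only and genes with acetylated ends only.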
